A study of Mus musculus with 13 samples.

Results

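The cell cycle and proliferation genes described here are 40 genes of DNA replication and cell division, picked by symbol from a table of 56,953 mouse genes. All 40 were found, and all 40 were among the 18,055 genes that passed a filter on low counts. By textbook role, 14 act at the entry into or during DNA synthesis (G1/S) and 26 act in the preparation for and course of mitosis (G2/M). The RNA came from whole aorta of ApoE-/- mice, which lack apolipoprotein E and develop atherosclerosis. All mice ate a Western diet (WD) for 16 weeks from an age of 6 weeks, so no group is a lean or wild-type control. The groups were WD alone (5 libraries), WD with auranofin at 3 mg/kg/day (3 libraries), WD with atorvastatin at 10 mg/kg/day (3 libraries) and WD with both drugs at these doses (combination, 2 libraries). Auranofin is a gold compound that inhibits thioredoxin reductase and was developed for rheumatoid arthritis, and atorvastatin is a statin that lowers cholesterol.

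The labels tie no library to a named mouse, so p-values below measure the spread between these samples, which may in part be technical. Whole aorta holds smooth muscle, endothelium, adventitial fat and plaque, and the lesion size of each mouse is not given in the sources used here. In such bulk RNA, fewer dividing cells and less of these transcripts per cell cannot be told apart. The kit kept no strand, so reads in exons that overlap between genes cannot be assigned by strand. Of the exonic length of Kif20a, 29.3% lay within exons of another gene. The share was 22.8% for Ube2c, 17.4% for Ccne2, 12.6% for Mcm7 and 12.5% for Ccna2.

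Cells that leave quiescence first load the Mcm helicase onto replication origins and release E2F factors from the retinoblastoma protein, which turns on the genes of DNA synthesis. Genes of mitosis are held off in resting cells by the DREAM complex and are turned on later by B-Myb and FoxM1, many through a promoter element called the cell cycle genes homology region (CHR) beside CCAAT boxes. In the atherosclerotic wall, smooth muscle cells, macrophages and endothelial cells are all known to divide, and macrophage proliferation is a recognised source of plaque macrophages.

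The promoters of the members show these elements, and 6 are printed as examples, the 3 of each class with the smallest p for auranofin given or not. A promoter of 300 bases, from 250 before to 50 after the start site, was found for 33 of the 40 members in a RefSeq table on the build GRCm38.p6. The counts themselves were made on GRCm39, so positions serve to locate the sequences only. Foxm1, Tpx2, Ccne2, Ccna2, Aurkb, Mcm4 and Kif20a had no entry. The CHR was searched as TTTGAA or TTCGAA, the E2F site as TTTCCCGC, TTTCGCGC, TTTGCCGC or TTTGGCGC, and the CCAAT box as CCAAT, each on both strands.

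Of the G2/M members, 17 of 21 (81.0%) held a CHR, against 3 of 12 (25%) of the G1/S members and 19.4% of the 27,025 genes in the table. The E2F letters were in 5 of 12 G1/S members (41.7%), 1 of 21 G2/M members (Cdk1) and 2.32% of all genes. A CHR together with a CCAAT box was in 20 of 33 members (60.6%), against 7.70% of all genes and 5.98% of the 12,182 tested genes with an entry. A match is a description of letters and does not show that a factor binds there. Each sequence below runs 5′ to 3′ on the gene's strand, from 250 bases before the start site to base 30 from it, with the matched letters in capitals.
The first 3 are G2/M genes with a CHR: Plk1 encodes the kinase that drives mitotic entry and spindle assembly (chr7:122159185-122159464, plus strand), Cdca8 encodes borealin of the chromosomal passenger complex (chr4:124936888-124937167, minus strand) and Bub1 encodes a kinase of the spindle checkpoint (chr2:127831830-127832109, minus strand).
Plk1: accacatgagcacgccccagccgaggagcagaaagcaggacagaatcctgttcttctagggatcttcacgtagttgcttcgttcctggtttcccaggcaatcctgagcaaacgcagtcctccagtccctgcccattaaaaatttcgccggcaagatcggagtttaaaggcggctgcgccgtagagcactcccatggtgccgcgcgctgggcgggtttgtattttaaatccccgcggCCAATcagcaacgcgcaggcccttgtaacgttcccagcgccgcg
Cdca8: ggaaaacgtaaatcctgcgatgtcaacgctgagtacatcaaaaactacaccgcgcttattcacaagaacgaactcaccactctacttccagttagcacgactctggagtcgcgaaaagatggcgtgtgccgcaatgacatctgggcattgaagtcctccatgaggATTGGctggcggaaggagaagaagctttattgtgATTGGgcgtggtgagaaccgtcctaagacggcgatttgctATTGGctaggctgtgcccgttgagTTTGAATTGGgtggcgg
Bub1: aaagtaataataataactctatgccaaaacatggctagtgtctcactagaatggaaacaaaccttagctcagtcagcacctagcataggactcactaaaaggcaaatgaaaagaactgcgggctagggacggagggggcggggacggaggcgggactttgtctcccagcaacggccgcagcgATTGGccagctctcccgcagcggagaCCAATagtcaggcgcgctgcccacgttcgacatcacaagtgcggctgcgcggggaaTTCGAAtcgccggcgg
In Cdca8 the CHR, TTTGAA from base 14, shares 1 letter with a reversed CCAAT box, ATTGG, and in Bub1 it is TTCGAA from base 15. Plk1 shows only its CCAAT box here, because its TTTGAA starts at base 31, just past the printed stretch.
The other 3 are G1/S genes with E2F letters and no CHR: Mcm6 and Mcm5 encode subunits of the replicative helicase (chr1:128359676-128359955, minus strand, and chr8:75109259-75109538, plus strand) and Cdc6 encodes the factor that loads it (chr11:98907901-98908180, plus strand).
Mcm6: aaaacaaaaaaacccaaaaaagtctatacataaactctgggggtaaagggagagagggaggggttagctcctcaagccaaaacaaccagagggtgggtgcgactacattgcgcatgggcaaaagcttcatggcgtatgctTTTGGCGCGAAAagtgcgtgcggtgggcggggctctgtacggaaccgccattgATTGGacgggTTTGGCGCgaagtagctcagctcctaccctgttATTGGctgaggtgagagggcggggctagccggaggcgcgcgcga
Cdc6: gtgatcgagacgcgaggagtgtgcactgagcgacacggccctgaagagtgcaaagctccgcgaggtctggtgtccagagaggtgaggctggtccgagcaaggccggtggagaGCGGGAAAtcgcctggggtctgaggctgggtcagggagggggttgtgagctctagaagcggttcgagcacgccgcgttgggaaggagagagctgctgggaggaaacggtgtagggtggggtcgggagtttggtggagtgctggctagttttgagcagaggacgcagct
Mcm5: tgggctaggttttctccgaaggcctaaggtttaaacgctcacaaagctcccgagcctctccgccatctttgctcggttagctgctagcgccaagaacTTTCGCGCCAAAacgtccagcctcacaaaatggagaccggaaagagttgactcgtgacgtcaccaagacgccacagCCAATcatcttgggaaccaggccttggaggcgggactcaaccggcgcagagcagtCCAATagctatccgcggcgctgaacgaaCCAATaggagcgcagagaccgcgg
In Mcm6 and Mcm5, matches on the 2 strands overlap into 1 run of 12 letters, and Mcm6 holds a further TTTGGCGC from base -47.

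The libraries held 19,703,683 to 26,079,566 counts, of which the 40 genes took 0.0152% to 0.0343% (3683 to 7789 counts). The mitochondrial share ran from 9.36% to 38.8% and was highest in auranofin 2 and WD 2, which also had the lowest scaling factors (0.629 and 0.639). Levels below are CPM, the count of a gene relative to the library size scaled by the trimmed mean of M-values (TMM). Smooth muscle markers (Myh11, Acta2, Cnn1 and 4 others) were abundant throughout, at 6005 to 27,330 summed CPM, so the labelled tissue held its defining transcripts. WD 3 and auranofin 1 held markers of immature lymphocytes (7 genes led by Rag1) at 11.8 and 16.6 summed CPM, against 6.52 in auranofin 2 and at most 2.46 elsewhere, where Rag1 was at 0 in 7 libraries. Auranofin 2 stood apart in B cell markers (681 summed CPM, against 20.1 to 67.1 in the other 12 libraries).

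Per kilobase of the principal transcript, the most abundant member in WD was Pcna (ENSMUSG00000027342), the sliding clamp of DNA polymerase, at 35.8 ± 11.9 CPM per kb (SD, n = 5). Next came Mcm6 (ENSMUSG00000026355) at 15.1 ± 2.72, then Ube2c at 4.78 ± 4.10, Mcm7 at 4.43 ± 0.799, Mcm4 at 4.13 ± 0.561 and Birc5 at 4.03 ± 3.11 CPM per kb. The 4 after Mcm6 did not differ beyond their spread. At the low end stood the large kinetochore proteins Cenpf at 0.131 ± 0.0438 and Cenpe at 0.220 ± 0.0853 CPM per kb. Processed copies took counts of their own: Pcna-ps2 had 121 to 258 counts per library and Ccnb2-ps had 26 to 104, so part of the reads of Pcna and Ccnb2 may be split with them.

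The feature that stood out across the 40 genes was a split within the WD group. WD 1, WD 2 and WD 4 were high and WD 3 and WD 5 were low, and the libraries of the treated groups lay between, apart from auranofin 1, which was low. Summed over the 26 G2/M genes, WD 1 to WD 5 had 96.0, 133, 52.7, 106 and 40.3 CPM. The 95% exact Poisson intervals, which cover counting error only, were 92.4 to 99.7, 128 to 139, 49.8 to 55.6, 102 to 109.6 and 37.5 to 43.2, so the high and low aortas were apart by far more than counting error. Auranofin 1 to 3 had 43.0, 75.9 and 82.7 CPM, atorvastatin 1 to 3 had 70.1, 83.3 and 72.2, and the 2 combination libraries had 71.4 and 81.9. All 8 treated libraries fell between the lowest and the highest WD library. The group means were 85.6 ± 38.5 CPM (SD, n = 5) for WD, 67.2 ± 21.3 (n = 3) for auranofin, 75.2 ± 7.10 (n = 3) for atorvastatin and 76.6 ± 7.39 (n = 2) for the combination, so the means differed by less than the SD of WD.

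**Figure D1:**
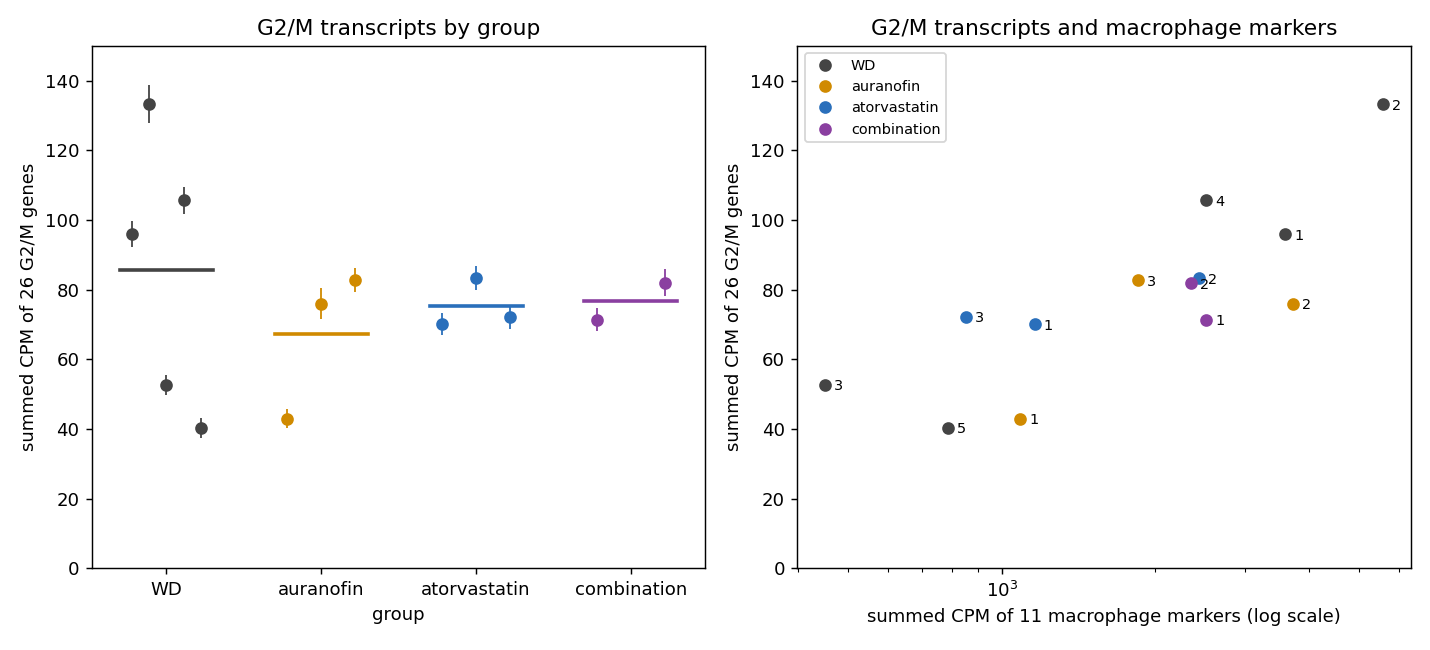
Summed CPM of the 26 G2/M genes in each library by group (left; points are libraries with 95% exact Poisson intervals, lines are group means) and against the summed CPM of 11 macrophage markers on a log axis (right; numbers are replicates). The 5 WD points span 40.3 to 133 CPM and the points of all treated groups lie within that span.

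Gene by gene the same libraries stood out. WD 2 was the highest of the 13 libraries for 22 of the 40 genes and WD 4 for 11. WD 5 was the lowest for 13, auranofin 1 for 12 and WD 3 for 5. WD 1 lay above the gene's mean for 39 genes and WD 4 for 38, whereas auranofin 1 did so for 1, WD 5 for 3 and WD 3 for 4. The G1/S genes moved less: their summed CPM ran from 139 in auranofin 1 to 224 in WD 2, and the 5 WD libraries had 183, 224, 157, 169 and 157. The median SD of log2 CPM within groups was 0.57 for G2/M genes, 0.34 for G1/S genes and 0.45 for all genes tested.

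**Figure D2:**
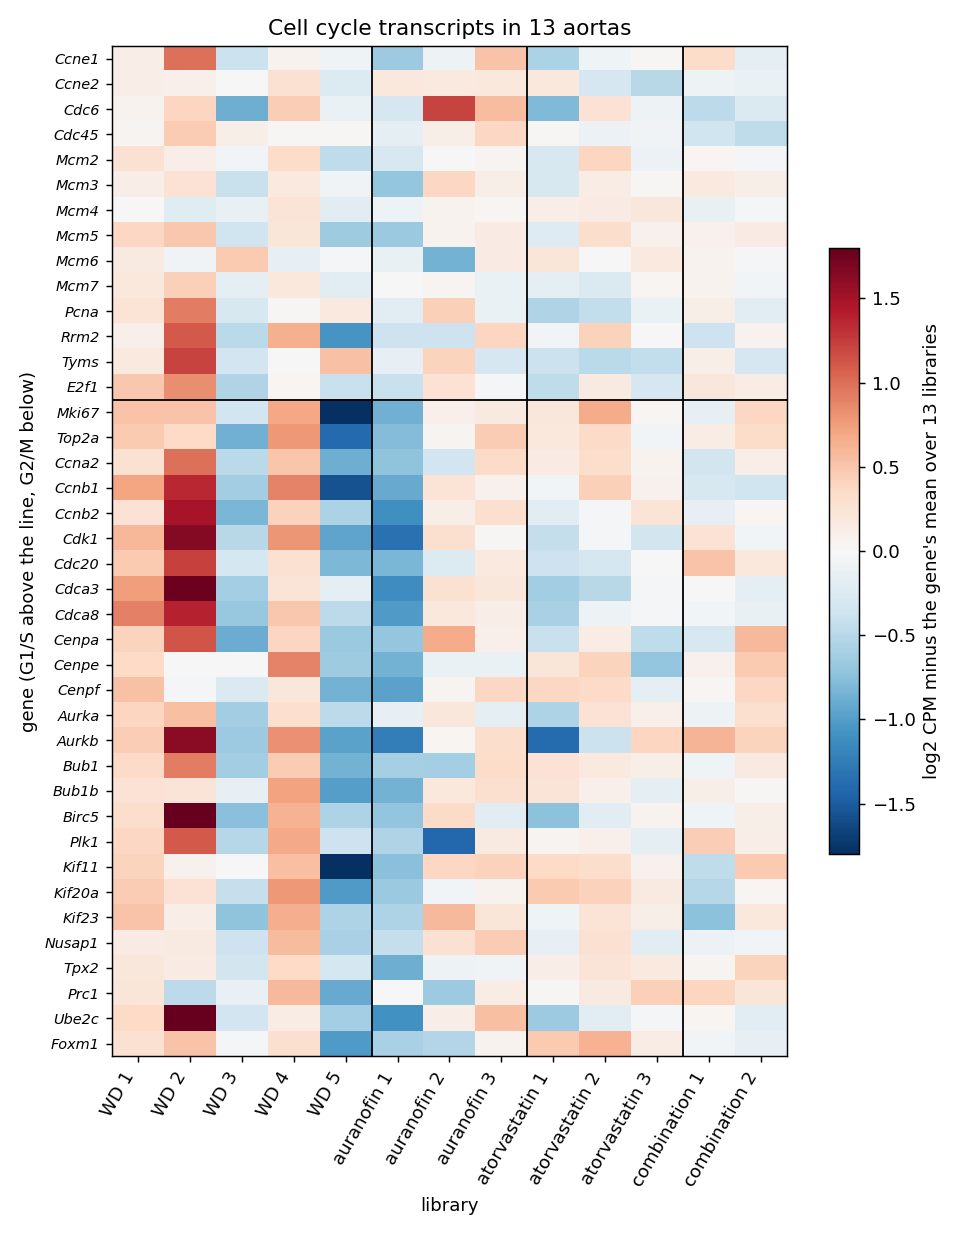
Log2 CPM of the 40 genes (rows, G1/S above the line and G2/M below) in 13 libraries (columns, by group) as the difference from the gene's mean over the libraries; values past the ends of the scale take its end colour. Columns WD 1, WD 2 and WD 4 are mostly red and WD 3, WD 5 and auranofin 1 mostly blue, most plainly among the G2/M genes.

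The chromatin markers of cycling cells showed the split clearly. Mki67 (ENSMUSG00000031004), which encodes the Ki-67 protein that coats mitotic chromosomes, had 9.09, 9.13, 5.03, 10.3 and 1.72 CPM in WD 1 to WD 5. It had 3.50, 6.78 and 7.11 CPM in auranofin 1 to 3, 7.34, 10.1 and 6.55 in atorvastatin 1 to 3, and 5.73 and 8.27 with the combination. WD 5 was lowest by a wide margin, and the groups overlapped. Top2a (ENSMUSG00000020914), the topoisomerase that untangles sister chromatids, had 8.37, 7.75, 3.31, 10.4 and 2.28 CPM in WD, 3.50, 6.26 and 8.27 with auranofin, 6.88, 7.63 and 5.84 with atorvastatin, and 6.66 and 7.56 with the combination. As for Mki67, WD 3, WD 5 and auranofin 1 were the low libraries.

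Among the mitotic cyclins and their kinase, the range was wider. Cdk1 (ENSMUSG00000019942), the kinase that starts mitosis, had 4.01, 8.29, 1.88, 4.60 and 1.37 CPM in WD. Its auranofin values were 1.04, 3.23 and 2.68 CPM, its atorvastatin values 1.97, 2.62 and 2.10, and its combination values 3.18 and 2.55. WD 2 was 7.95 times the lowest library, auranofin 1. Ccnb1, the cyclin B1 that partners Cdk1, had 3.19, 4.98, 1.27, 3.62 and 0.659 CPM in WD, with 1.04, 2.31 and 2.05 for auranofin, 1.89, 2.62 and 2.06 for atorvastatin and 1.59 and 1.51 for the combination. Both combination libraries lay below the 3 high WD libraries and above the 2 low ones. Ccna2, the cyclin A2 of S phase and G2, ran from 2.08 CPM in WD 5 to 7.63 in WD 2, and Ccnb2, cyclin B2, from 0.876 in auranofin 1 to 5.28 in WD 2.

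The kinases and checkpoint genes were again high in WD 1, WD 2 and WD 4, but atorvastatin 1 stood as low as WD 5, with median deviations of -0.53 and -0.54 over these 7 genes. Aurkb (ENSMUSG00000020897), the kinase of the chromosomal passenger complex, had 1.75, 3.96, 0.817, 2.26 and 0.659 CPM in WD and 0.542, 1.32 and 1.60 with auranofin. With atorvastatin it had 0.492, 0.987 and 1.68 CPM, and with the combination 1.96 and 1.70. Its highest library was 8.06 times its lowest, with 13 to 66 counts behind each value. Plk1 (ENSMUSG00000030867) had 2.04, 3.36, 1.10, 2.52 and 1.22 CPM in WD, 1.08, 0.593 and 1.75 with auranofin, 1.63, 1.67 and 1.39 with atorvastatin, and 2.14 and 1.70 with the combination. Here auranofin 2 was the lowest library, from 9 counts. Birc5, which encodes survivin of the same passenger complex, ran from 1.51 to 8.77 CPM in WD, Bub1 from 0.558 to 1.92, Bub1b, a brake on the anaphase-promoting complex, from 1.37 to 4.49, and Aurka, the centrosome kinase, from 1.23 to 2.76.

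Regulators of protein breakdown at mitotic exit held the widest range. Ube2c (ENSMUSG00000001403), the ubiquitin-conjugating enzyme of the anaphase-promoting complex, had 3.87, 11.6, 2.37, 3.32 and 1.98 CPM in WD, 1.42, 3.29 and 4.39 with auranofin, 1.93, 2.62 and 2.94 with atorvastatin, and 3.11 and 2.65 with the combination. WD 2 was far above the other 12, which lay within 1.42 to 4.39 CPM. Cdc20, the activator of that complex, had 3.47, 5.89, 2.00, 3.03 and 1.42 CPM in WD and 1.42 to 3.55 in the treated libraries. Among kinetochore, spindle and cytokinesis genes, Kif11, the motor that separates spindle poles, ran from 0.659 in WD 5 to 3.47 in WD 4, Cenpa, the histone variant of centromeres, from 2.21 in WD 3 to 9.01 in WD 2, and Prc1, which bundles midzone microtubules, from 1.83 in WD 5 to 5.11 in WD 4. For 5 of the 6 genes of the spindle and cytokinesis (Kif11, Kif20a, Kif23, Nusap1, Tpx2 and Prc1), WD 4 and not WD 2 was the highest library, the exception being Tpx2.

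The 2 steadiest members were helicase genes. Mcm4 had 13.2 to 18.1 CPM over all 13 libraries, a ratio of 1.37, and Mcm7 10.1 to 16.3. Mcm2 had 9.02, 8.05, 7.19, 9.35 and 5.43 CPM in WD, and Mcm5 had 7.12, 7.75, 4.29, 6.39 and 3.55, in the order of the split. Mcm6 went against it: it had 46.0, 39.2, 56.8, 37.1 and 40.4 CPM in WD, so its highest library was WD 3, and its lowest was auranofin 2 at 22.7. Cdc6 (1.72, 2.16, 0.899, 2.23 and 1.52 CPM in WD) was highest in auranofin 2 at 3.82. Cdc45, which joins the Mcm ring to form the active helicase, had 3.08, 4.08, 3.23, 3.03 and 3.04 CPM in WD and did not separate WD 3 and WD 5 from the rest.

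Enzymes that make DNA building blocks parted company in WD 5. Rrm2, the ribonucleotide reductase subunit, had 3.19, 6.43, 2.13, 4.64 and 1.42 CPM in WD, with WD 5 lowest. Tyms (ENSMUSG00000025747), thymidylate synthase, had 6.91, 14.2, 4.82, 6.14 and 8.82, with WD 5 the second highest of these 5, and Pcna had 53.4, 84.7, 36.9, 45.7 and 51.0. The transcription factors ranged over 3.56 to 9.19 CPM in all libraries for E2f1, the activator of S phase genes, and 1.27 to 3.95 for Foxm1, the activator of G2/M genes. Ccne1 and Ccne2, the E cyclins that start S phase with Cdk2, had 0.709 to 2.22 and 2.35 to 4.02 CPM.

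Transcripts of several other cell types moved with the G2/M sum in WD. The 11 macrophage markers (led by Cd68, Adgre1 and Csf1r, none at 0 in any library) summed to 3594, 5570, 452, 2510 and 785 CPM in WD 1 to WD 5, so the 3 WD libraries with high G2/M sums were also the 3 with more macrophage RNA. In the other groups they summed to 1087 to 3714 CPM with auranofin, 852 to 2433 with atorvastatin and 2345 to 2514 with the combination. Outside WD the orders parted. Auranofin 2 had the second highest macrophage sum and a G2/M sum in the middle of the 13, and combination 1 had the fourth highest macrophage sum and the fifth lowest G2/M sum. The 6 fibroblast markers (led by Pdgfra, Dcn and Lum) followed the WD split as well, with 7024, 6018, 4412, 6215 and 4068 CPM in WD 1 to WD 5 and the lowest sum of all, 3890, in auranofin 1. The 5 brown fat markers (led by Ucp1, Cidea and Ppargc1a) ran the other way, with 99.2, 233, 864, 299.6 and 550.2 CPM in WD and 1122 in auranofin 1. Smooth muscle markers did not follow the split: the 2 highest WD sums were 27,330 in WD 5 and 25,474 in WD 2, at the opposite ends of the G2/M order. The part of macrophage, fibroblast or fat content in the split was not tested, and the Rag1 libraries WD 3 and auranofin 1 were among its 3 lowest.

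In part of the libraries, the members' deviations also moved with transcript length. Over the 17,732 tested genes with an annotated length, genes under 1500 bases stood 1.45 log2 units above genes of 3000 bases and over in WD 2 (difference of median deviations, members left out). This difference was 0.81 in WD 5 and 0.46 in auranofin 2, but -0.80 in atorvastatin 1 and -0.55 in atorvastatin 2, and lay between -0.28 and 0.05 in the other 8 libraries. Among the 40 members, Spearman's rho of the deviation with length was -0.63 in WD 2, -0.37 in WD 5, 0.74 in atorvastatin 1 and 0.59 in atorvastatin 2. Over all these genes it was -0.55, -0.38, 0.53 and 0.47. WD 3, WD 4, auranofin 2 and combination 2 had 0.39, 0.27, -0.21 and 0.31 for members, against 0.27, 0.21, -0.26 and 0.28. Members were near 0 in auranofin 1, auranofin 3 and atorvastatin 3 (-0.03, -0.04 and 0.03), against 0.20, 0.30 and 0.15. WD 1 and combination 1 had 0.08 and -0.04, against -0.05 and -0.09. These are correlations across genes of 1 library, which are not independent replicates.

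The excess of WD 2 over the other high WD libraries was uneven from gene to gene, and the part of transcript length in it was not tested. Relative to the mean of WD 1 and WD 4 on the log2 scale, WD 2 was higher by 1.69 for Ube2c (967 bases), 1.32 for Birc5 (947 bases), and 1.28 for Cdca3 (1976 bases), a trigger of mitotic entry. Of the 21 members under 3000 bases, 19 were higher in WD 2 (median 0.68), the exceptions being Mcm6 and Nusap1. Of the 19 of 3000 bases and over, 13 were lower (median -0.19), with Prc1 lowest at -0.87 (3026 bases), Cenpe at -0.63 (7910 bases) and Cenpf at -0.39 (11,130 bases), and Mki67 near level at -0.08 (10,061 bases). The other 6 were higher, among them Tyms by 1.13 (3163 bases), Cdk1 by 0.95 (4375 bases) and Bub1 by 0.52 (3421 bases). Without Ube2c, Birc5 and Cdca3, left out after their values were seen, the G2/M sums of WD 1 to WD 5 were 84.5, 104, 47.1, 95.4 and 34.2 CPM, in the same order. WD 5 was low at every length: the members' median deviation there was -0.60 under 1500 bases, -0.43 from 1500 to under 3000 and -0.83 at 3000 and over, where all genes had 0.56, 0.09 and -0.26.

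**Figure D3:**
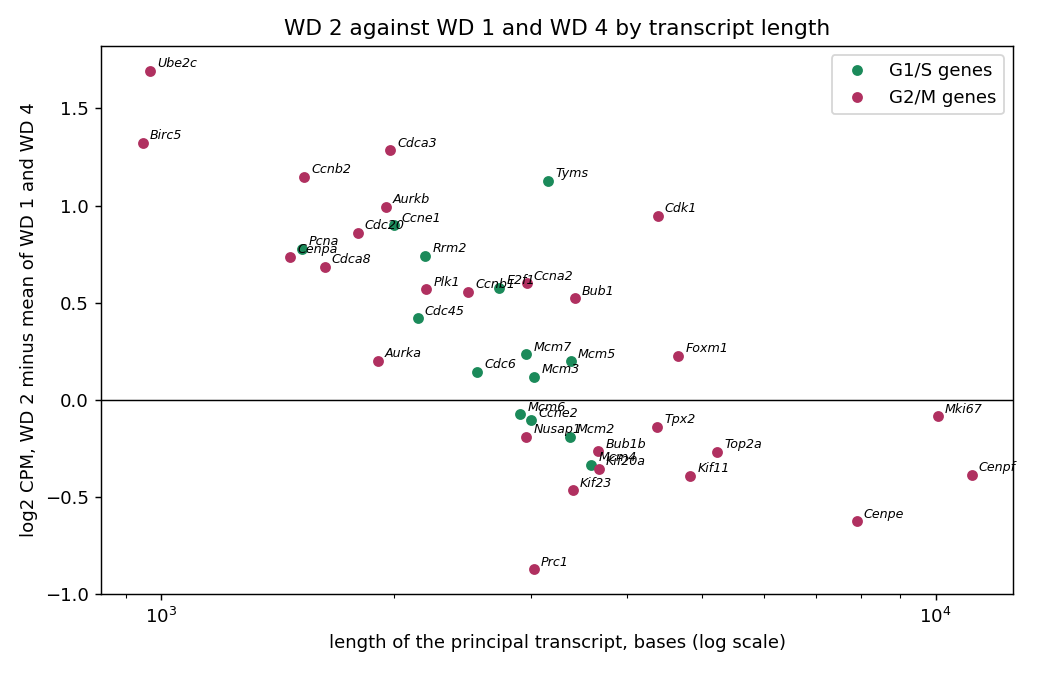
Difference in log2 CPM between WD 2 and the mean of WD 1 and WD 4 for each of the 40 genes against the length of the principal transcript in bases (log axis); points are genes, coloured by phase. Ube2c and Birc5, the shortest, lie at 1.69 and 1.32, Cenpe and Cenpf, among the longest, at -0.63 and -0.39, and Cdk1 (4375 bases) departs from this at 0.95.

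The first comparison sets the 3 auranofin libraries against the 5 WD libraries, for the response of these transcripts to the gold drug. None of the 40 genes was called at an adjusted p of 0.05 in edgeR's quasi-likelihood test with Benjamini-Hochberg adjustment over all genes, where 0% of the 18,055 genes were. At an unadjusted p under 0.05 the count was also 0 of 40, against 3.79% of all genes lower and 2.71% higher. DESeq2 gave 0 of 40 at that level, against 1510 of the 18,055 genes. Limma voom with sample weights gave 5, all lower (Cdk1, Cdca3, Cdca8, Cenpe and Tpx2), against 1709 of the 18,055 genes in both directions. None of the 5 passed adjustment. The fitted change was negative for 34 of 40 genes, against 53.6% of all genes, with a median of -0.25 on the log2 scale against -0.04 for all genes tested. The 40 genes varied together from library to library, so their signs are not separate observations. Markers of other cell types differed in the same comparison, none of them called in edgeR. The brown fat markers were fitted higher for 5 of 5 genes (median 1.47, all 5 at an unadjusted p under 0.05), the endothelial markers for 6 of 6 (0.82, 4 at that level) and the B cell markers for 7 of 7 (2.46, 5 at that level). T cell markers were also fitted higher for 7 of 7 (1.00, 2 at that level). Within the auranofin group, the B cell and endothelial sums were high in auranofin 2 alone, at 681 and 2398 CPM. Auranofin 1 and 3 had 23.2 and 55.9 CPM for B cells and 957 and 741 for endothelium. These lay within the WD ranges of 20.1 to 67.1 and 522 to 992 CPM. Heart and skeletal muscle markers were fitted lower for 6 of 6 (-3.28, 4 at that level), smooth muscle markers for 6 of 7 (-0.68) and macrophage markers for 9 of 11 (-0.25). The heart and skeletal muscle sums were 317, 13.9, 65.2, 461 and 41.5 CPM in WD 1 to WD 5. In auranofin 1 to 3 they were 11.2, 12.8 and 53.8. Smooth muscle sums were 15,010, 6005 and 15,547 CPM with auranofin, against 12,942 to 27,330 in WD. Brown fat sums were 1122, 2707 and 446 CPM with auranofin, against 99.2 to 864 in WD. The part of these markers in the members' values was not tested.

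Plk1 had the smallest p among them, with a log2 fold change of -0.81 (SE 0.43, adjusted p = 0.67 in edgeR). Cdk1 had -0.80 (SE 0.53), Birc5 -0.72 (SE 0.52), Aurkb -0.71 (SE 0.60) and Ccnb1 -0.61 (SE 0.54), each with an adjusted p of 0.675 to 0.718. Mki67 had -0.29 (SE 0.46) and Top2a -0.10 (SE 0.44). The G1/S genes lay nearer 0, with Pcna at -0.21 (SE 0.26), Mcm2 at -0.14 (SE 0.23) and Mcm5 at -0.19 (SE 0.29), and Cdc6 had the largest positive value at 0.56 (SE 0.39). For no member did the 3 auranofin libraries all lie outside the range of the 5 WD libraries, against 1.32% of all genes lower and 1.45% higher. Leaving out WD 2 moved the members' median to -0.09 and leaving out auranofin 3 moved it to -0.43, both by over 1.5 times.

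**Figure D4:**
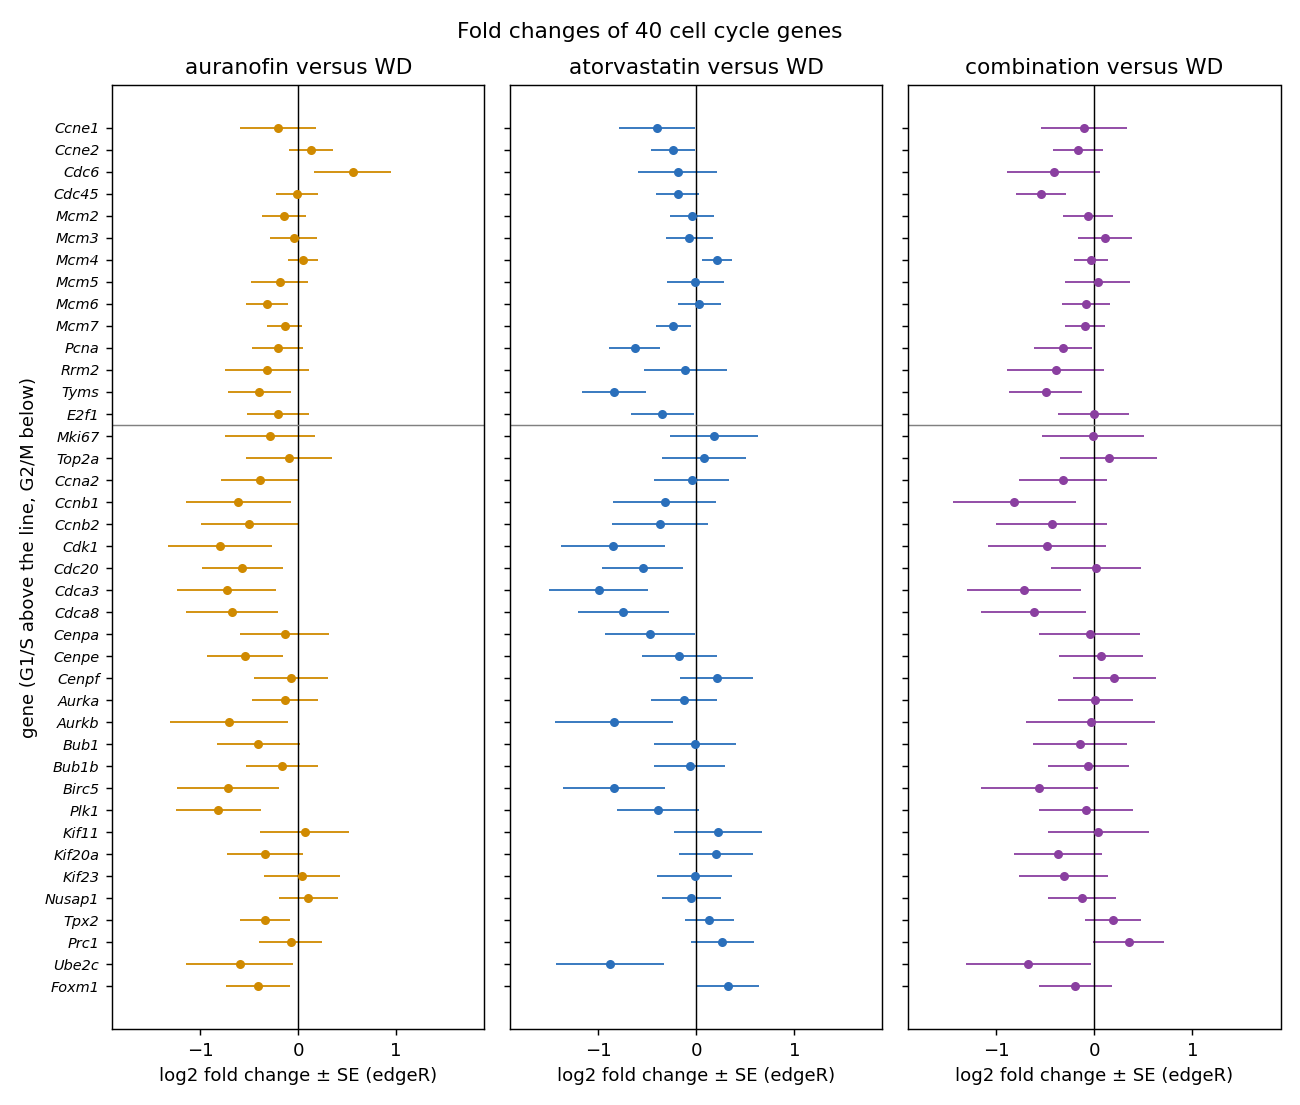
Log2 fold change of each of the 40 genes against WD with its standard error (bars) from edgeR, for auranofin, atorvastatin and the combination (panels), G1/S genes above the line. Most points lie left of 0 in each panel with bars that reach near or past 0, and no gene passed the adjusted threshold.

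With atorvastatin alone, Tyms and Pcna had the lowest levels relative to WD for their spread, and neither passed adjustment. In edgeR 0 of 40 genes were called, as were 0% of all genes. At an unadjusted p under 0.05, 2 of 40 were lower, Tyms and Pcna, against 10.5% of all genes, and 0 were higher, against 4.19%. DESeq2 added Cdca3 to these and limma voom added Cdca3 and Mcm7. In both directions, 3227 of the 18,055 genes were at that level in DESeq2 and 3706 in limma voom. Tyms had 4.69, 4.40 and 4.53 CPM with atorvastatin, all below the lowest WD library at 4.82, and a log2 fold change of -0.84 (SE 0.33, adjusted p = 0.34 in edgeR). Pcna had 31.0, 33.1 and 41.4 CPM, which overlapped WD 3 at 36.9, and a log2 fold change of -0.63 (SE 0.26, adjusted p = 0.34 in edgeR). Cdc45 had 3.02, 2.77 and 2.85 CPM, all just below the lowest WD library at 3.03, with a log2 fold change of only -0.19 (SE 0.22). Tyms and Cdc45 were the 2 of 40 genes whose atorvastatin libraries all lay below WD, against 2.87% of all genes, and for 0 of 40 did all lie above, against 2.83%.

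The fitted change with atorvastatin was negative for 30 of 40 genes, against 50.8% of all genes, with a median of -0.15 against -0.01. It differed by transcript length in members and in all genes, and the members' median was the lower in each length range. Over all genes the median was -0.66 under 1500 bases, -0.15 from 1500 to under 3000 and 0.27 at 3000 and over. The shares lower were 81.0%, 65.0% and 22.9%. Among the members the medians were -0.84, -0.33 and -0.01, with 3 of 3, 17 of 18 and 10 of 19 genes lower. Birc5 had -0.84 (SE 0.52), Ube2c -0.88 (SE 0.55) and Aurkb -0.84 (SE 0.60), and Cdk1, of 4375 bases, was as low at -0.85 (SE 0.53). By contrast, Mki67, with the second longest transcript, had 0.18 (SE 0.45), Top2a 0.08 (SE 0.43), Cenpf 0.21 (SE 0.37) and Foxm1 0.33 (SE 0.32). With the length difference of each library as a covariate, an alternative added after the data were seen, Tyms had -0.11 (SE 0.20), Pcna -0.10 (SE 0.15) and the members' median was -0.03. Leaving out WD 2 also gave a median of -0.03. The covariate comes from the same counts and is not balanced over the groups. It was -0.80, -0.55 and -0.12 in atorvastatin 1 to 3 and -0.26 to 1.45 in WD. A drug effect and a length effect therefore cannot be told apart by this fit.

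With both drugs, 0 of 40 genes were called in edgeR, as were 0% of all genes, and 0 of 40 had an unadjusted p under 0.05, against 0.521% lower and 0.947% higher. DESeq2 gave 1 at that level, Cdc45, and limma voom 0, against 372 and 245 of the 18,055 genes. Cdc45 had 2.33 and 2.17 CPM in the 2 combination libraries, the lowest values of all 13, and a log2 fold change of -0.55 (SE 0.26, adjusted p = 0.997 in edgeR). It was the 1 member of 40 whose 2 libraries lay below all WD libraries, against 1.75% of all genes, and none lay above, against 1.54%. The fitted change was negative for 30 of 40 genes, against 51% of all genes, with a median of -0.10 against -0.01. Ccnb1 had -0.82 (SE 0.63), Tyms -0.50 (SE 0.37) and Birc5 -0.56 (SE 0.60), while Mki67 at -0.01 (SE 0.52), Cdc20 at 0.02 (SE 0.46) and Top2a at 0.14 (SE 0.49) were near 0. Leaving out WD 2 brought the members' median to -0.01, and with the length covariate it was -0.07.

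The 4 groups form a layout of each drug given or not, which sets 5 libraries with auranofin against 8 without and 5 with atorvastatin against 8 without. In this additive fit 0 of 40 genes were called for either drug in edgeR, as were 0% of all genes, and 0 of 40 reached an unadjusted p under 0.05 for either. Of all genes, 0.798% were lower and 1.89% higher at that level for auranofin, and 4.24% and 2.84% for atorvastatin. Limma voom gave 1 for auranofin, Foxm1, and 2 for atorvastatin, Ccne2 and Cdc45, and DESeq2 gave 0 and 1, Tyms. Of the 18,055 genes, limma voom had 983 for auranofin and 1451 for atorvastatin at that level, and DESeq2 had 632 and 1958. For auranofin, 34 of 40 fitted changes were negative, against 55.4% of all genes, with a median of -0.10, and Foxm1 had the smallest p at -0.45 (SE 0.25, adjusted p = 0.998 in edgeR). Foxm1 CPM was 1.71, 1.78 and 2.68 with auranofin and 2.48 and 2.31 with the combination, against 3.11, 3.66, 2.53, 3.14 and 1.27 in WD and 3.55, 3.95 and 2.81 with atorvastatin. The libraries with and without auranofin overlapped: WD 5, without it, was the lowest of all, and auranofin 3 was above WD 3. For atorvastatin, 24 of 40 were negative, against 49.6% of all genes, with a median of -0.09 that turned to 0.06 without WD 2 and to 0.04 with the length covariate.

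Whether the drugs acted together otherwise than their sum was tested as an interaction. In edgeR 0 of 40 genes were called, as were 0% of all genes. None of the 40 had an unadjusted p under 0.05, against 0.997% of all genes lower and 2.1% higher. DESeq2 also gave 0 of 40, against 691 of the 18,055 genes. Limma voom gave 4 higher (Pcna, Cdk1, Cdc20 and Aurkb), none past adjustment, against 1601 of the 18,055 genes in both directions. The term was positive for 31 of 40 genes, against 52.3% of all genes, with a median of 0.23. Cdc20 had the smallest p, with 1.14 (SE 0.65), and Aurkb the largest estimate, 1.51 (SE 0.94), each with an adjusted p of 0.791 in edgeR.

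Other genes of the same machinery, from lists chosen with earlier results of these data known, gave no call either. Of 40 other G2/M genes, 34 were fitted lower with auranofin (median -0.34), 24 with atorvastatin (-0.13) and 24 with the combination (-0.13), and none was called in edgeR. The smallest p among them belonged to Cit, the citron kinase of the cleavage furrow, with 0.584, 0.922 and 0.857 CPM with auranofin and 0.887 and 0.614 with the combination, against 1.19 to 1.83 in WD. Both groups lay wholly below WD, as did 1.32% of all genes tested for auranofin and 1.75% for the combination. Cit was picked for its small p, so this is not a separate result. Its log2 fold change for auranofin given or not was -0.82 (SE 0.23, adjusted p = 0.998 in edgeR). Of 38 other S phase genes tested, 28 were lower with auranofin (median -0.20) and 25 with atorvastatin (-0.28), among them Gins4 of the GINS helicase complex at -0.75 (SE 0.23) and Orc1 of the origin recognition complex at -1.62 (SE 0.56) with atorvastatin. None of these was called.

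Genes that restrain the cycle were looked at in the same way. Of 8 Cdk inhibitors, 5 were fitted lower with auranofin, 6 with atorvastatin and 3 with the combination, and none was called in edgeR. Cdkn1a, which encodes p21, had 60.8, 66.2, 27.8, 54.2 and 43.2 CPM in WD and 38.2, 30.8 and 39.0 with auranofin, a log2 fold change of -0.49 (SE 0.27). WD 3 was the lowest library for Cdkn1a. Cdkn2a, which encodes p16 and p19Arf, had 1.29, 1.38, 0.0409, 1.10 and 0.0507 CPM in WD, where the low values of WD 3 and WD 5 were 1 count each, so the 3 high WD libraries for G2/M genes were the 3 with more than 1 count. Trp53 had a log2 fold change of -0.46 with auranofin (SE 0.20, adjusted p = 0.671 in edgeR), Cdkn1c 0.18 (SE 0.20) and Ccnd1, cyclin D1, 0.11 (SE 0.39). Of 11 genes of the p53 response, 8 were fitted lower with auranofin (median -0.10), 5 with atorvastatin and 6 with the combination. Of 16 genes of the RB, E2F and DREAM families, 10 were fitted higher with auranofin (median 0.18), 9 with atorvastatin and 11 with the combination.

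The promoter classes can be set side by side by library. The median deviation of the 20 members with a CHR was 0.39, 0.53, -0.42, 0.43 and -0.63 in WD 1 to WD 5 and -0.76 in auranofin 1. For the 4 with E2F letters and no CHR (Cdc6, Mcm3, Mcm5 and Mcm6) it was 0.14, 0.33, -0.38, 0.19 and -0.09, and -0.48 in auranofin 1. For the 9 with neither, it was 0.25, 0.98, -0.38, 0.56 and -0.55, and -0.43. These 6 libraries are those in which the members deviate most. In auranofin 3 the medians of the 3 classes were 0.19, 0.15 and -0.03, in atorvastatin 3 -0.04, 0.05 and -0.12, and in combination 2 0.14, 0.03 and -0.05, so the classes differed in sign there.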

How the data were processed

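Poly-A RNA of 13 aortas was sequenced on a DNBseq instrument without strand information. The deposited table holds raw counts per gene, which the authors made with STAR 2.6.1d and featureCounts of Subread 1.6.3 on GRCm39, per the submitters' processing notes. Samples were grouped by the labels (5 WD, 3 auranofin, 3 atorvastatin, 2 combination). The 40 genes, the other lists and the markers were chosen with earlier results of these data known.

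All steps used the deposited counts with edgeR 4.0.16 (R 4.3.3): genes were filtered with filterByExpr over the 4 groups, scaled by TMM, fitted with the quasi-likelihood model and adjusted by Benjamini-Hochberg over all 18,055 genes, with a threshold of 0.05. Standard errors are the log2 fold change divided by the root of the F statistic. Deviations are log2 CPM with a prior count of 2, less the gene's mean over 13 libraries. Transcript lengths came from GENCODE vM21 on GRCm38, matched by gene ID. The longest principal transcript of a gene was taken, or its longest transcript where none was marked as principal. Other transcripts of a gene can be shorter, and this measure was chosen after the data were seen. Figures used matplotlib 3.10.9. Gene names come from the table, in which 1554 IDs had no symbol. No library was left out of the fits. No 2 libraries agreed within sampling noise (smallest chi-square per degree of freedom 17.7). The test was checked on simulated data, in which 200 of 18,055 genes were changed. Of 2-fold changes it recovered 0% for each treated group against WD, and 30.5% and 33% in the additive fits. Of 4-fold changes it recovered 70.5% for auranofin, 68.5% for atorvastatin and 56.5% for the combination against WD. An absence of calls therefore does not show that changes of 2-fold or less were absent.

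All 40 genes may be named. For tests, the text names a panel (Mki67, Top2a, Ccna2, Ccnb1, Ccne1, Ccne2, Cdk1, Cdc20, Cdc6, Birc5, Aurkb, Plk1, Mcm2, Mcm5, Pcna, Rrm2, Tyms, E2f1, Foxm1) and the 3 members of smallest p in each direction, and from each other list the 2 of smallest p, with Cdkn1a, Cdkn2a, Cdkn1c, Ccnd1 and Trp53. Tests of Cdc45, Ube2c and Cenpf with atorvastatin fall outside that rule and were chosen after their values were seen. Alternatives were median-of-ratios scaling, no filter, a filter of CPM 1 in 2 libraries, DESeq2 1.42.0, limma 3.58.1 voom with sample weights, a replicate block, leaving out libraries, only the groups compared and a length covariate.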

Additional observations from a re-analysis of the deposited data

Results flagged for a closer look

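Within the 5 WD libraries, 1 value stood far from the other 4 by Dixon's criterion for 3 of the 40 genes, each time in WD 2. Ube2c had 11.6 CPM in WD 2 (gap to the next library 0.804 of the group's range), Cdc45 had 4.08 CPM (0.813) and Ccne1, the cyclin E1 of S phase entry, had 2.22 CPM (0.737). Chance flags about 1 in 20 groups. WD 2 was also the library with the largest excess of short transcripts, 1.45 log2 units, and Ube2c has a transcript of 967 bases, Ccne1 one of 2000 and Cdc45 one of 2143. The part of transcript length in these 3 values was not tested.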

How the results depend on the processing

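No member was called under any alternative. Of 2948 values of named members under the alternatives, 0 crossed the threshold and 234 had the other sign. Over all genes, where 0 were called in each comparison, calls without a low-count filter were 13 for auranofin, 2 for atorvastatin and 9 for the combination, with DESeq2 2 for auranofin, 4 for the combination and 11 for the interaction, and with the length covariate 1 for auranofin. Leaving out 1 library gave 0 to 10 for the combination and 0 to 2 for the interaction, highest without combination 1. The cause was not tested. The members' median ranged over single libraries left out from -0.43 (without auranofin 3) to -0.09 (without WD 2) for auranofin, from -0.24 (without WD 5) to -0.03 (without WD 2) for atorvastatin, and from -0.24 (without WD 5) to -0.01 (without WD 2) for the combination. Without WD 3 and auranofin 1 the 3 medians were -0.23, -0.24 and -0.24, and without WD 2 and auranofin 2, an alternative added after the data were seen, -0.15, -0.02 and -0.00. With replicate number as a block they were -0.34, -0.17 and -0.24, and 0 genes were called. Correlations between same-numbered libraries ran from -0.26 to 0.43, highest for auranofin 2 with WD 2. They cannot settle whether the numbers mark anything shared, which the labels do not say. Counts of 9 to 69 behind genes such as Plk1 and 10 to 38 behind Bub1 limit their precision, and groups of 2 and 3 libraries limit all comparisons.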
